A study of Mus musculus with 200 samples.

Results

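The 6 libraries described here, 3 labelled Nelfb knockout and 3 labelled wild type, are part of 200 mouse libraries in the series, whose table of transcription factor knockouts holds 40 knockouts in 10 batches. They were chosen by their labels alone, as the Nelfb columns and the control columns of batch 1 of that table, with no measured value used. Both groups carry the label Epi, for epiblast, the layer that forms the embryo proper, and the stage E5.0. In the study's design, factors were removed with C-CRISPR, which aims several guides at 1 gene in the zygote so that whole embryos lack it, and embryos were grown in culture across the time of implantation. Between 10 and 100 cells were lysed for each library, RNA with a poly(A) tail was copied and amplified for 17 cycles by a Smart-seq2 type of method, and the labels state 3 biological replicates a group. The strain, the number of embryos behind a library and whether the controls received Cas9 or guides are not given in the sources used here. The batch number comes from the sample titles, which do not say what a batch was.

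Nelfb (chr2:25199712-25211489, minus strand, mm10) is a protein-coding gene for a core subunit of the negative elongation factor, NELF. NELF holds RNA polymerase II shortly after it has started a gene, and the kinase P-TEFb releases it. It works at many signal-responsive and developmental genes, and it also binds the cap-binding complex. With the stem-loop binding protein, NELF takes part in making the 3′ ends of replication-dependent histone messages, which normally end after a stem-loop and carry no poly(A) tail. Around implantation, epiblast, primitive endoderm and extraembryonic ectoderm, which comes from the trophectoderm, lie next to each other in a very small embryo.

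The transcript of the targeted gene did not separate the groups in the direction of its label. Nelfb stood at 15.2, 13.8 and 26.7 TPM (an abundance scaled for transcript length and to a fixed library total) in the libraries labelled knockout. It stood at 10.0, 10.3 and 12.5 TPM in the controls. All 3 labelled knockout libraries thus lay above all 3 controls, and the difference of 0.66 ± 0.43 (SE) on the log2(TPM + 1) scale did not pass the test (limma, adjusted p = 0.298). Small deletions can remove a protein and leave its RNA, so the RNA level checks neither presence nor loss of the protein. The other NELF subunits did not pass either: Nelfcd differed by 0.75 ± 0.29 (SE, adjusted p = 0.055), Nelfa by 0.40 and Nelfe by 0.17 on that log2 scale. Nelfcd passed without labelled knockout replicate 3 (1.13, adjusted p = 0.0058), the library with the lowest Nelfcd level of its group at 36.1 TPM, against 91.4 and 70.1 TPM in the others. The libraries are called by their labels throughout.

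The controls held little Pou5f1, Nanog and Otx2 RNA and much RNA of extraembryonic ectoderm markers, which goes against their Epi label. Other pluripotency genes were abundant in them. In the 3 batch 1 controls Pou5f1, the pluripotency factor OCT4, ranged from 23.0 to 33.9 TPM, Nanog from 0.305 to 1.96 TPM and Otx2 from 10.2 to 14.8 TPM. Elf5 ranged from 75.4 to 98.3 TPM and Rhox5 from 2958 to 3000 TPM, both known from extraembryonic ectoderm, while Cdx2 stayed between 0.187 and 0.638 TPM. Utf1, at 584 to 670 TPM, and Tdgf1, at 229 to 257 TPM, both known from the epiblast, were also present. The 16 naive pluripotency genes, Nanog among them, summed to 10226 to 10921 TPM in these controls. Batch 1 was not unusual in this: over the controls of the 9 batches titled 5.0, batch 1 included, the batch means ran from 4.42 to 90.6 TPM for Pou5f1, from 19.9 to 163 TPM for Elf5 and from 1170 to 4640 TPM for Rhox5. In these 3 genes the controls of batch 8 alone were unlike them. They held Pou5f1 at 443 to 586 TPM, Elf5 at 0 to 0.241 TPM and Rhox5 at 6.43 to 15.3 TPM. Nanog, however, was at 29.1 to 33.9 TPM in the controls of batch 3 and 27.4 to 44.9 TPM in those of batch 8. Its control mean was at most 3.94 TPM in each other batch. The batch 3 means of Elf5 and Rhox5, 19.9 and 1170 TPM, were the lowest of the 9 batches. Batch 8 is titled 6.0, although its stage label reads E5.0 like that of batch 1, so stage and batch cannot be told apart there. In such bulk samples fewer cells of a type and less RNA of a gene per cell cannot be told apart, which holds for every result that follows.

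The libraries labelled Nelfb knockout differed from the controls across much of the measured transcriptome. Of 10370 genes tested, 2218 (21.4%) passed an adjusted p of 0.05 in limma; 1211 (11.7%) were higher and 1007 (9.71%) lower, and 1374 differed at least 2-fold. The log2 differences of all tested genes had a median of 0.07. The split between higher and lower depended on scaling. With the libraries scaled to a common median, that median moved by -0.36, 2635 genes passed, and 22.6% of them were higher, against 54.6% as deposited. Rises below 0.36 on the log2 scale therefore changed sign with that scaling. Larger rises could lose their call, as Rpl10l did (0.71, limma, adjusted p = 0.093), and genes called higher went from 1211 to 596. The 3 controls resembled each other closely (r = 0.973 to 0.975 over log2 values), and the 3 labelled knockout libraries were no more like each other (0.889 to 0.899) than like the controls (0.893 to 0.907). They also held slightly fewer genes at 1 TPM or more, 9622 to 10044 against 10167 to 10270, and their 10 most abundant genes took 11.5 to 12% of all TPM against 7.51 to 7.6%. Ftl1, the ferritin light chain that stores iron, made up much of that difference: 43498, 47322 and 40460 TPM against 16333, 15519 and 15626 TPM. Quantile normalization gives the top gene the same value in every library and so cannot show this difference. Ftl1 and all other genes given here that the naming rule did not select were chosen after their values were seen.

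**Figure D1:**
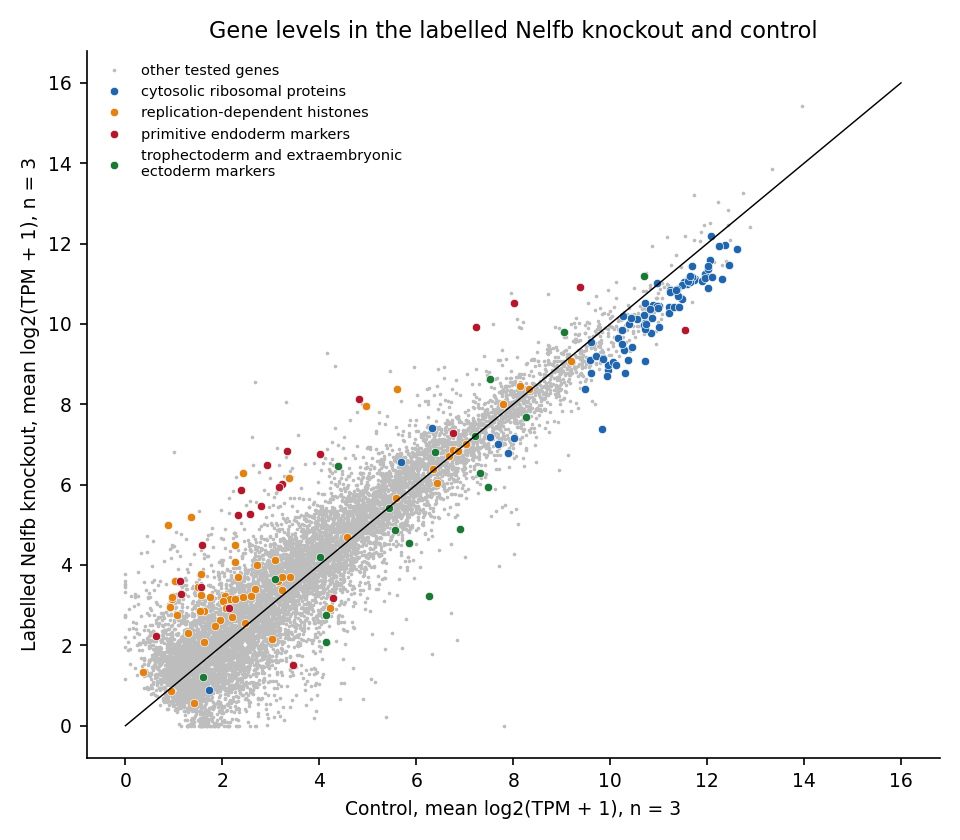
Each point is 1 of the 10370 tested genes, placed by its mean log2(TPM + 1) in the 3 controls (x axis) and in the 3 libraries labelled Nelfb knockout (y axis), with 4 gene lists in colour and the line of equal level in black. Most primitive endoderm markers lie above the line and most cytosolic ribosomal protein genes, at the upper right, lie below it.

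Most primitive endoderm genes rose. Of 23 tested markers of 26 measured, 18 rose (78.3%, against 11.7% of all genes), 3 fell and 2 did not pass, with a median log2 difference of 2.67. The 3 untested members did not reach 1 TPM in 3 libraries. The basement membrane genes led. Lama1, a laminin chain, stood at 103, 97.7 and 71.0 TPM in the libraries labelled knockout and at 7.15, 6.36 and 6.11 TPM in the controls, a log2 difference of 3.59 ± 0.35 (SE, limma, adjusted p = 3.9e-15). Its lowest labelled knockout library was about 10 times its highest control. Col4a1, a chain of type IV collagen, stood at 130, 89.5 and 122 TPM against 8.88, 9.74 and 8.81 TPM. Its divergent neighbour Col4a2 stood at 42.2, 79.5 and 56.7 TPM against 4.36, 4.38 and 3.93 TPM. The groups were far apart for both collagen genes, with log2 differences of 3.48 and 3.49. Sparc, a secreted matrix protein of parietal endoderm, went from 245 to 282 TPM in the controls to 1435 to 1513 TPM (2.51 ± 0.14 SE, adjusted p = 1.2e-29).

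The endocytic and regulatory genes of primitive endoderm behaved likewise. Dab2, an adaptor for endocytosis that this lineage needs, stood at 255, 288 and 294 TPM against 22.3, 31.8 and 29.0 TPM. Control means of Dab2 differed between batches, from 4.03 TPM in batch 8 to 262 TPM in batch 3 (245 to 281 TPM), where they reached the level of the libraries labelled Nelfb knockout. Control means of Gata4 and Sox17 reached 7.37 and 15.0 TPM at most. For Gata4 this was batch 7, with 2 libraries at 0 and 14.7 TPM. For Sox17 it was batch 3, at 11.1 to 19.6 TPM, close to the lowest labelled Nelfb knockout library at 21.1 TPM. Lrp2, the large endocytic receptor megalin, stood at 40.3, 30.4 and 41.5 TPM against 5.14, 2.91 and 4.26 TPM. Both differences passed, at 3.30 ± 0.34 and 2.92 ± 0.31 (SE). Among transcription factors, Gata4 stood at 21.7, 21.8 and 21.8 TPM against 1.38, 2.04 and 2.75 TPM (2.92 ± 0.50 SE, adjusted p = 1.6e-06). Sox17 stood at 35.8, 71.0 and 21.1 TPM against 6.07, 6.06 and 3.13 TPM, and Foxa2 at 11.6, 12.4 and 9.57 TPM against 1.19, 1.11 and 1.27 TPM. None of these groups overlapped. Gata6, at 4.31, 4.45 and 14.0 TPM against 2.77, 3.47 and 4.04 TPM, did not pass (adjusted p = 0.22). The 3 that fell were Ttr, Amn and Rhox5. Ttr and Amn did not pass without labelled knockout replicate 2 (-0.46, adjusted p = 0.48, and -1.20, adjusted p = 0.31), nor without control replicates 1 or 2. Amn did not pass either without control replicate 3 or labelled knockout replicate 3. Rhox5, a homeobox gene also high in extraembryonic ectoderm, went from 2958, 2970 and 3000 TPM to 996, 825 and 964 TPM (-1.68 ± 0.11 SE, adjusted p = 2.2e-25). The summed level of the whole list was 6281 to 6813 TPM against 4282 to 4294 TPM. Rhox5 weighs heavily on this sum, so the sum understates the rise of the other members. Whether the libraries labelled knockout held more primitive endoderm cells was not tested.

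**Figure D2:**
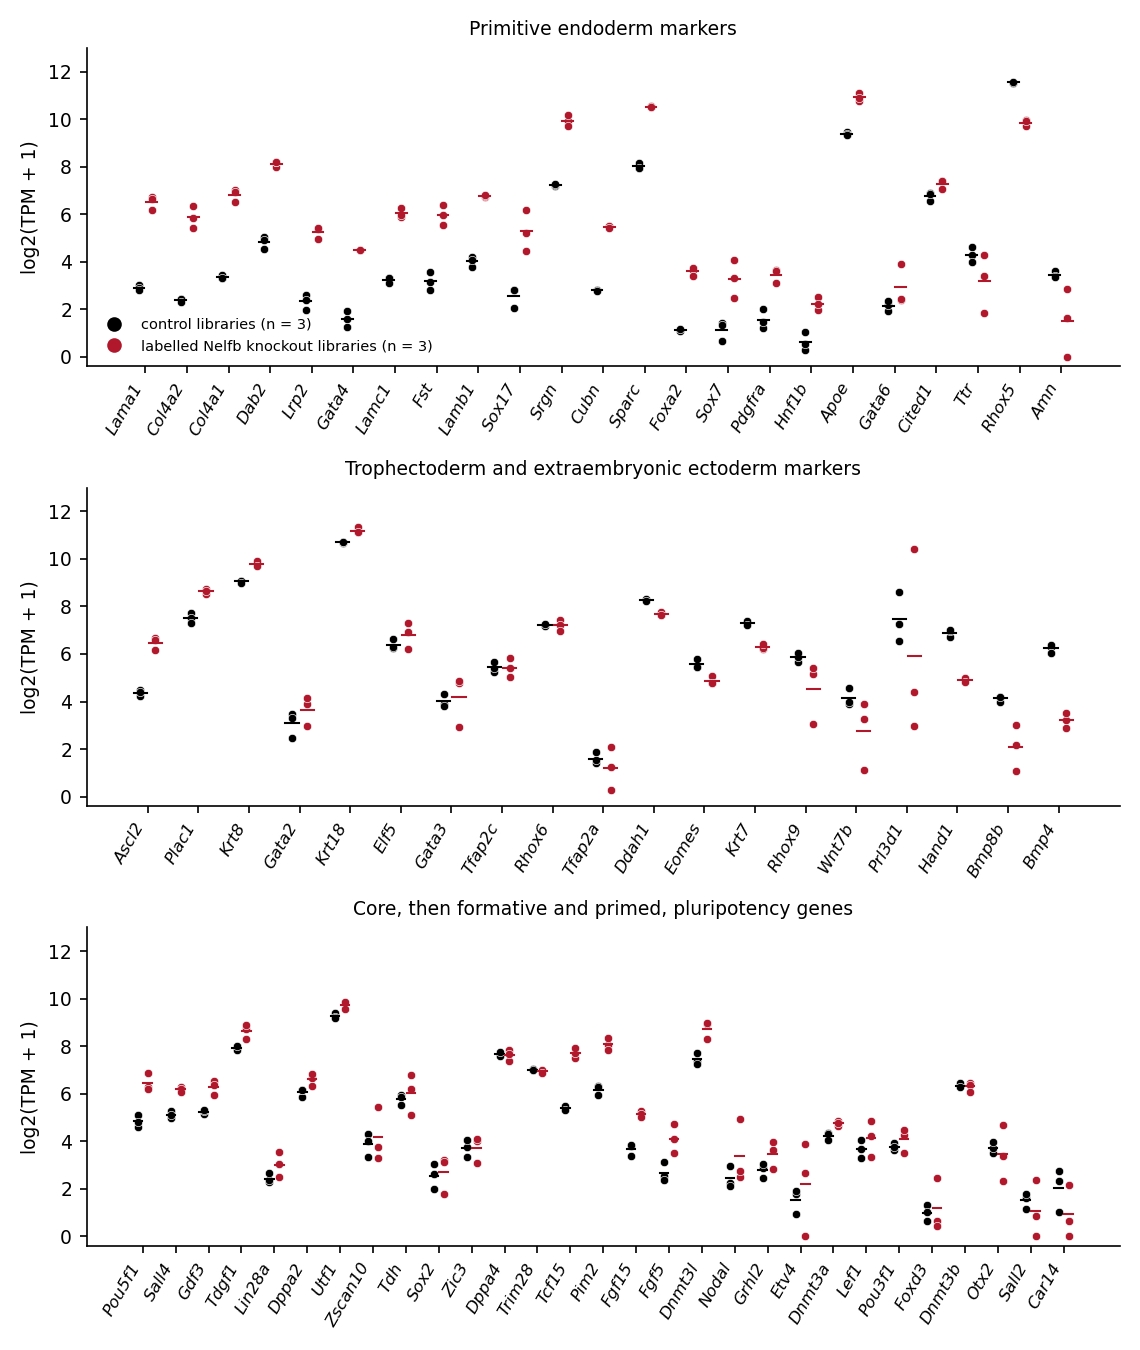
Each point is 1 library and each short line a group mean (n = 3), on log2(TPM + 1), for every tested marker of 3 lineage groups, controls in black and libraries labelled Nelfb knockout in red, ordered by difference within a list. In 20 of the 23 primitive endoderm genes all red points lie above all black ones, 18 of which passed the test. Such a separation upward occurs in 19.7% of all tested genes. Trophectoderm and extraembryonic ectoderm genes divide between both directions.

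Trophectoderm and extraembryonic ectoderm markers divided. Of 19 tested of 21, 4 rose (21.1%, against 11.7% of all genes), 7 fell (36.8%, against 9.71%) and 8 did not pass. The median was -0.40. Bmp4, the signal that extraembryonic ectoderm sends to the epiblast, fell most. It stood at 8.34, 10.5 and 6.48 TPM in the libraries labelled knockout against 77.9, 83.3 and 65.8 TPM (-3.04 ± 0.36 SE, limma, adjusted p = 1.0e-11). Hand1, a transcription factor of trophoblast giant cells, stood at 29.0, 31.2 and 27.1 TPM against 106, 123 and 128 TPM (-1.99 ± 0.27 SE). The groups were apart for both genes. Bmp8b, which acts beside BMP4, fell from 15.0 to 17.4 TPM to between 1.13 and 6.96 TPM (-2.05, adjusted p = 0.0027); without labelled knockout replicate 2, the lowest, it no longer passed (-1.55, adjusted p = 0.058). Elf5, Eomes and Tfap2c, which define trophoblast stem cells, did not pass; Elf5 was at 155, 121 and 73.0 TPM against 75.4, 76.8 and 98.3 TPM, and passed as higher without labelled knockout replicate 3 (0.72, adjusted p = 0.032). Eomes passed as lower with quantile normalization (-1.02, adjusted p = 0.0034) and median scaling (-1.06, adjusted p = 0.0045). Ascl2 rose from 17.8 to 21.3 TPM to between 70.0 and 100.0 TPM (2.09 ± 0.65 SE; adjusted p = 0.13 with a pseudocount of 0.1), and the placental gene Plac1 from 159 to 211 TPM to between 363 and 428 TPM (1.12 ± 0.24 SE). Prl3d1, a giant cell hormone, stood at 6.88, 19.9 and 1374 TPM in the libraries labelled knockout and at 389, 92.4 and 154 TPM in the controls. It did not pass (adjusted p = 0.098) but was lower without labelled knockout replicate 3, the library at 1374 TPM (-3.79, adjusted p = 2.0e-07). The list's summed level was 4355 to 5616 TPM against 3622 to 3873 TPM. Its highest value, in labelled knockout replicate 3, includes the 1374 TPM of Prl3d1. Krt8, at 508 to 542 TPM in the controls, is also part of the sum. The sum therefore does not show the direction of single members, more of which fell than rose. Across BMP signals and targets, 0 of 16 tested genes rose and 4 fell (25%), Bmp4, Bmp8b, Smad5 and Smad6. Both Smad genes stood below 5 TPM in every library of the comparison. With only the compared groups in the fit Smad5 (adjusted p = 0.069) and Smad6 (adjusted p = 0.071) did not pass, and Smad6 also failed when any of 4 of the 6 libraries was left out, with the lowest such adjusted p at 0.071.

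Pluripotency genes of the postimplantation epiblast rose in part, and none that was tested fell. Of 13 core pluripotency genes 5 rose (38.5%, against 11.7% of all genes) and 0 fell (against 9.71%), with a median of 0.49. Of 16 tested formative and primed genes 5 rose (31.2%) and 0 fell (median 0.60). Pou5f1 stood at 116, 76.7 and 72.1 TPM in the libraries labelled knockout against 23.0, 33.9 and 27.5 TPM (1.60 ± 0.36 SE, limma, adjusted p = 0.00038). Sall4, its partner in pluripotent cells, stood at 78.0, 73.2 and 67.5 TPM against 30.2, 37.5 and 33.4 TPM (1.09 ± 0.24 SE). Both groups were apart. Pim2, a kinase of the formative state, stood at 265, 232 and 321 TPM against 79.1, 76.4 and 60.1 TPM, and Tcf15, which primes the epiblast for differentiation, at 179, 210 and 241 TPM against 40.2, 44.4 and 39.3 TPM. Dnmt3l, a cofactor of de novo DNA methylation, rose from 152 to 208 TPM to between 317 and 497 TPM. Sox2 and Otx2 did not pass. Naive genes went both ways, with 3 of 12 higher (25%), namely Nr0b1, Klf4 and Dppa5a, and 4 lower (33.3%). Dppa5a did not pass with median scaling (0.16, adjusted p = 0.51), nor Nr0b1 with a pseudocount of 0.1 (2.08, adjusted p = 0.13). Those that fell included Sox15 at 3.46, 11.4 and 1.05 TPM against 36.3, 28.2 and 34.5 TPM and Klf2 at 1.95, 4.31 and 0.185 TPM against 14.2, 14.3 and 13.7 TPM. With median scaling, 2 core and 3 formative and primed genes rose. Lefty1, a Nodal antagonist, stood at 45.2, 44.8 and 52.9 TPM against 4.21, 5.91 and 4.70 TPM (3.04 ± 0.61 SE, adjusted p = 4.4e-05), while Smad3 fell (-1.75, adjusted p = 0.018), a call lost without labelled knockout replicate 2 (adjusted p = 0.089) or control replicate 2 (adjusted p = 0.058).

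Replication-dependent histone genes rose in part. Of 63 measured, 58 were tested, 21 rose (36.2%, against 11.7% of all genes), 0 fell at the adjusted threshold, and 37 did not pass, with a median of 0.81. With median scaling 14 rose and 1 fell, and with quantile normalization 20 and 1. H2ac19 and H2ac18, neighbouring and near-identical H2A genes on chromosome 3 between which reads cannot be assigned with certainty, led. H2ac19 stood at 36.0, 34.3 and 23.7 TPM against 0.505, 1.37 and 0.710 TPM (4.12 ± 0.56 SE, limma, adjusted p = 2.7e-09). H2ac18 stood at 41.8, 43.3 and 25.2 TPM against 1.41, 1.84 and 1.43 TPM (3.85 ± 0.41 SE). H1f2, a linker histone on chromosome 13, stood at 57.0, 75.0 and 108 TPM against 6.48, 4.25 and 2.99 TPM (3.86 ± 0.72 SE). H2bc4 stood at 223, 271 and 254 TPM against 30.7, 24.2 and 36.5 TPM, and H4c9 at 290, 445 and 290 TPM against 50.3, 50.6 and 42.6 TPM. In each of these 5 genes the groups were apart by several times the larger control value. By class, 8 of 15 tested H2B genes rose (median 1.23), 5 of 11 H4 (1.29), 5 of 12 H3 (0.87), 1 of 5 H1 (1.03) and 2 of 15 H2A (0.05); differences between classes were not tested. Most histone genes have close copies, so single members are uncertain. Slbp, the stem-loop binding protein, rose as well, from 347 to 379 TPM to between 716 and 776 TPM (1.03 ± 0.16 SE, adjusted p = 1.3e-07). Of the 11 histone RNA processing factors 2 rose (18.2%), Slbp and the cleavage enzyme Cpsf3, and 1 of them passed with median scaling.

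**Figure D3:**
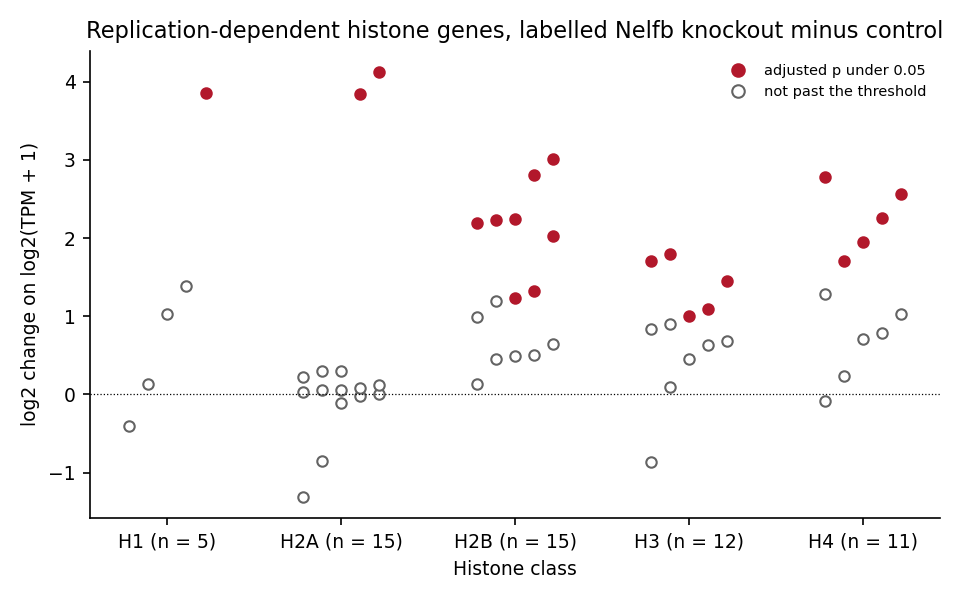
Each circle is 1 of the 58 tested replication-dependent histone genes, placed by class (x axis) and by its difference on log2(TPM + 1) between the libraries labelled Nelfb knockout and the controls (y axis), filled where it passed the test. Filled circles are frequent in H2B, H3 and H4, whereas 13 of the 15 H2A genes lie at 0.30 or below and are open.

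The 3′ stem-loop of these messages is printed for 6 of the risen genes because the libraries were made from RNA with a poly(A) tail. Capitals mark the 16-base stem-loop and lower case the 10 bases that follow it, in DNA letters as in the GENCODE M21 transcripts (mm10).
H2ac19: GGCTCTTTTCAGAGCCacccactgaa
H2ac18: GGCTCTTTTCAGAGCCacccactgaa
H1f2: GGCTCTTTTCAGAGCCaccactccca
H2bc8: GGCTCTTTTCAGAGCCacccatactg
H4c9: GGCCCTTTTTAGGGCCaccacaaaat
H4c11: GGTCCTTTTCAGGACCaccacatctt
H1f2 lies at chr13:23738807-23739531, H4c9 at chr13:22040960-22041362 and H2ac18 at chr3:96245497-96246052 (RefSeq, GRCm38.p6). The histone stem-loop was found in the annotated transcripts of 17 of the 21 genes that rose and of 24 of the 37 that did not pass. Among those 17, the annotated transcript reaching furthest past the stem-loop ran more than 100 bases beyond it in 11, with a median of 330 bases. Among those 24 it did so in 7, with a median of 44.0 bases. H1f2 has 840 annotated bases after its stem-loop and H2bc6 has 1861, whereas H2ac19 and H2ac18 have 35. These are counts over annotated transcripts, and where the RNA in the libraries ended was not analysed here. In the RefSeq promoters (250 bases before to 50 after the start), TATAAA on the gene's strand between 40 and 20 bases before the start was present in 0 of 18 risen and 8 of 30 histone genes that did not pass, among those with an entry, and in 1.18% of all tested genes. CCAAT on either strand anywhere in that window was present in 14 of the 18 and 28 of the 30, against 40.4% of all.

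Cytosolic ribosomal protein genes fell nearly as a whole. Of 84 tested of 85, 73 fell (86.9%, against 9.71% of all genes), 2 rose and 9 did not pass, with a median of -0.65. Their summed level was 122140, 115730 and 123800 TPM in the libraries labelled knockout against 190490, 185760 and 184440 TPM in the controls. Rpl22l1, a paralogue of Rpl22, fell most, to 161, 147.5 and 189 TPM from 910, 916 and 905 TPM (-2.46 ± 0.14 SE, limma, adjusted p = 4.9e-29). Rplp0, a protein of the ribosomal stalk, stood at 2007, 2367 and 2288 TPM against 5191, 4907 and 5021 TPM (-1.18 ± 0.07 SE). Rpl23a, Rpl36a and Rpl12 changed by -1.62, -1.53 and -1.28 (log2), with no overlap between the groups. The 2 that rose, Rpl10l and Rpl39l, are copies known for their expression in the male germ line, and neither passed with median scaling (adjusted p = 0.093 and 0.13). Rpl10l did not pass either without labelled knockout replicate 1 (adjusted p = 0.056). Under quantile normalization 55 fell and under median scaling 80 did. Many ribosomal protein genes have processed pseudogenes, so the counting of single members is uncertain.

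The promoters of the 4 fallen ribosomal protein genes with the largest changes and a RefSeq entry are shown, since messages of this class are known to begin with a pyrimidine tract. Each run covers 40 bases before to 10 bases after the annotated start, and capitals mark CTTT within 10 bases of the start.
Rpl22l1: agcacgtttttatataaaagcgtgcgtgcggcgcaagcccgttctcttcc
Rpl36a: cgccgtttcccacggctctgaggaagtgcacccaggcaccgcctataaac
Rpl12: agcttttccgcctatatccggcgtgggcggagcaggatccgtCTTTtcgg
Rps27: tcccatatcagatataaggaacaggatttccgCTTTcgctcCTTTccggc
They lie at chr3:28805468-28805517 (plus strand), chrX:134585614-134585663 (plus), chr2:32961672-32961721 (plus) and chr3:90213639-90213688 (minus), all GRCm38.p6. CTTT on the gene's strand within 10 bases of the start was present in 13 of 55 fallen ribosomal protein genes with an entry (23.6%), against 6.44% of all tested genes and 9.18% of all genes that were lower. On the other strand it was present in 3 of the 55 (5.45%), against 5.24% of all.

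Genes of respiration, ribosome assembly and sterol synthesis fell more often than they rose, and more so with median scaling, where 28 complex I, 10 ribosome biogenesis and 9 sterol genes fell and 0, 0 and 1 rose. Complex I is the first enzyme of the respiratory chain. Of its 37 subunit genes 19 fell (51.4%, against 9.71% of all genes) and 4 rose (10.8%, against 11.7%). The median was -0.38. Ndufa2 stood at 259, 209 and 249 TPM against 639, 640 and 655 TPM (-1.43 ± 0.13 SE, limma, adjusted p = 7.5e-18). Of 21 ribosome biogenesis genes 6 fell (28.6%) and 2 rose (9.52%). Npm1, a nucleolar chaperone, stood at 3210, 2841 and 3085 TPM against 5243, 5399 and 5558 TPM (-0.83 ± 0.09 SE), while Nop56, of the small nucleolar ribonucleoproteins, was higher at 688, 688 and 618 TPM against 418, 385 and 446 TPM (with median scaling, adjusted p = 0.054). The groups were apart in all 3 genes. Among sterol genes 5 of 19 fell (26.3%) and 2 rose (10.5%). Insig1, which holds back the activation of sterol genes, rose from 134 to 152 TPM to between 337 and 381 TPM.

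**Figure D4:**
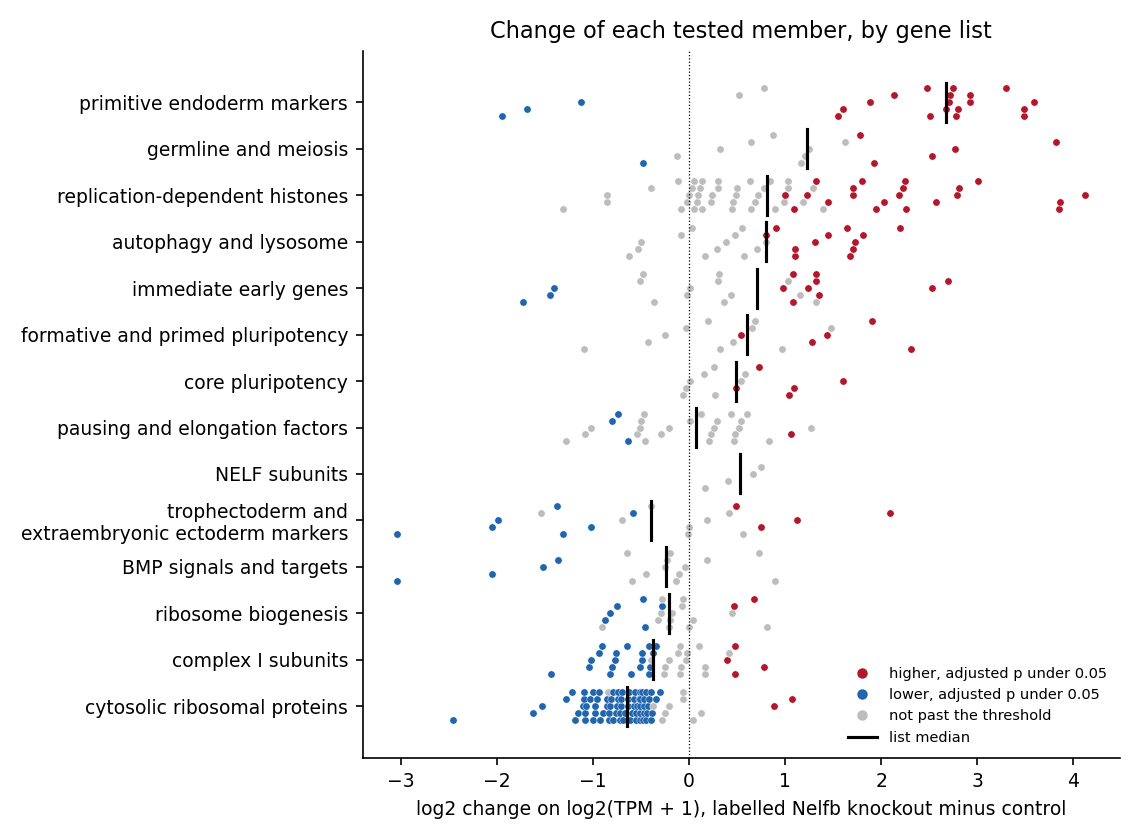
Each point is 1 tested gene, placed by its difference on log2(TPM + 1) between the libraries labelled Nelfb knockout and the controls (x axis) within 14 gene lists, red where higher and blue where lower at an adjusted p of 0.05, with the list median as a black line. Ribosomal protein genes form a narrow blue band (median -0.65), and the primitive endoderm markers reach the highest median, 2.67.

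Of 28 pausing and elongation factors, which include the release kinase and its inhibitors, 1 rose (3.57%, against 11.7% of all genes) and 3 fell (10.7%, against 9.71%), with a median of 0.07. Supt4a, a subunit of DSIF, the partner of NELF in holding the polymerase, fell from 416 to 449 TPM to between 208 and 308 TPM (-0.74 ± 0.13 SE, limma, adjusted p = 4.9e-06). Cdk9, the kinase of P-TEFb, was at 16.7, 35.5 and 17.5 TPM against 22.4, 18.1 and 19.6 TPM and did not pass. Direction depended on scaling here: 9 fell under both quantile normalization and median scaling. Of 28 polymerase subunits and general factors 7 rose (25%) and 3 fell (10.7%). Polr2h and Polr2k, small subunits of the polymerase, each changed by -0.89 (log2). Ercc3, a helicase of TFIIH, rose from 5.56 to 11.5 TPM to between 21.8 and 34.6 TPM (1.75). It did not pass without labelled knockout replicate 2 (adjusted p = 0.058), without control replicate 1 (adjusted p = 0.085) or with a pseudocount of 0.1 (adjusted p = 0.077). With median scaling 1 of these 28 rose and 8 fell. Of 18 Integrator and cap-binding genes 4 rose (22.2%) and 1 fell (5.56%). These counts became 1 and 3 with median scaling and 2 and 3 with quantile normalization.

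Immediate early genes, many of which carry paused polymerase before a signal arrives, rose in part. Of 24 tested, 9 rose (37.5%, against 11.7% of all genes), 3 fell (12.5%, against 9.71%) and 12 did not pass. The median was 0.70. Jun, a subunit of the AP-1 factor, stood at 36.3, 16.6 and 23.7 TPM against 3.60, 1.88 and 3.54 TPM (2.69 ± 0.49 SE, limma, adjusted p = 6.6e-06). Atf3 stood at 9.17, 21.4 and 28.4 TPM against 4.55, 2.17 and 0.995 TPM (2.52 ± 0.54 SE). The groups did not overlap in either. Klf6 and Btg2 rose by 1.35 and 1.32 (log2). Fos, the best known member, was at 53.2, 54.3 and 31.9 TPM against 46.7, 41.9 and 49.6 TPM, and Egr1 fell, at levels below 7 TPM in every library. Egr1 did not pass without labelled knockout replicate 1 (-1.13, adjusted p = 0.091) or control replicate 2 (-1.15, adjusted p = 0.094). Cells were separated with trypsin in both groups, and the part that handling had in these genes was not tested. Of the 22 FGF and ERK pathway genes 2 rose and 2 fell (9.09% each), near the shares of all genes.

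Autophagy and lysosome genes rose in part, and the stress lists divided. Of 25 autophagy and lysosome genes 12 rose (48%, against 11.7% of all genes) and 0 fell (against 9.71%), with a median of 0.80. Ctsl, the lysosomal protease cathepsin L, stood at 1030, 909 and 993 TPM against 269, 273 and 290 TPM (1.81 ± 0.13 SE, limma, adjusted p = 6.4e-23). Psap, the precursor of saposins, stood at 62.9, 72.0 and 80.0 TPM against 21.2, 19.1 and 22.4 TPM, and Atg7, of the autophagy conjugation system, at 7.22, 10.1 and 6.70 TPM against 1.04, 1.36 and 0.515 TPM. The higher level held in every labelled knockout library. Among heat shock and chaperone genes 6 of 19 rose (31.6%) and 4 fell (21.1%), which became 3 and 8 with median scaling. Hspb1 rose from 399 to 434 TPM to between 1582 and 1903 TPM (2.02 ± 0.12 SE). Among p53 targets 2 of 25 rose (8%) and 5 fell (20%). Perp, a membrane protein of epithelia, stood at 34.1, 31.1 and 29.4 TPM against 269, 262 and 286 TPM (-3.07 ± 0.25 SE), and Mdm2, the ligase that removes p53, at 21.7, 23.3 and 27.4 TPM against 69.1, 67.3 and 90.2 TPM. Of 17 ATF4 and amino acid stress genes 5 fell (29.4%) and 2 rose (11.8%). Chac1 and Trib3 fell, while Ddit3 rose to 116, 84.5 and 61.8 TPM from 26.1, 37.4 and 26.7 TPM. Apoptosis regulators had 0 of 15 higher and 2 lower (13.3%). Glycolysis and hypoxia genes had 8 of 22 higher (36.4%) and 1 lower (4.55%), the last being Ldhb. With median scaling 7 of these genes rose and 6 fell.

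Several germline and imprinted genes changed. Of 14 tested germline and meiosis genes 5 rose (35.7%, against 11.7% of all genes) and 1 fell (7.14%, against 9.71%). The median was 1.22. Tex101, a surface protein of germ cells, stood at 57.7, 41.1 and 25.8 TPM against 1.46, 1.59 and 2.69 TPM (3.82 ± 0.75 SE, limma, adjusted p = 3.3e-05), and Sycp3, of the synaptonemal complex, at 147, 55.1 and 121 TPM against 17.5, 25.8 and 9.69 TPM. Of 22 tested imprinted genes 8 rose (36.4%) and 3 fell (13.6%). Cdkn1c, a growth-restraining inhibitor of the cell cycle, stood at 138, 96.0 and 120 TPM against 17.8, 19.4 and 14.1 TPM (2.71 ± 0.44 SE). H19, a noncoding RNA of the same chromosome region, stood at 92.1, 71.3 and 83.0 TPM against 468, 512 and 489 TPM (-2.57 ± 0.17 SE, adjusted p = 5.4e-25). The libraries of the 2 groups did not overlap in any of these 4 genes. DNA replication genes had 6 of 22 higher (27.3%) and 1 lower (4.55%), which became 1 and 6 with median scaling. Mitosis genes had 3 of 21 higher (14.3%) and 0 lower, which became 1 and 7 with that scaling.

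The 12 largest rises and falls included genes outside these lists. Adh1, an alcohol dehydrogenase (chr3:138260991-138290698, mm10), rose most, to 329, 422 and 380 TPM from 4.36, 4.26 and 8.13 TPM (5.89 ± 0.51 SE, limma, adjusted p = 4.4e-18). Aqp8, a water channel, stood at 326, 219 and 259 TPM against 10.1, 11.7 and 5.93 TPM, and Plat, the tissue plasminogen activator, at 16.9, 25.3 and 38.4 TPM against 0.537, 0.0622 and 0.572 TPM. Gpha2, a glycoprotein hormone subunit, stood at 173, 197 and 86.7 TPM against 5.34, 5.02 and 4.98 TPM. In all 4 the lowest labelled knockout library was above 10 times the highest control. Nefl, a neurofilament, Dppa1, Catip and Fam151a completed the rises together with Tex101 and the 3 histone genes.

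The falls were led by trophoblast genes. Prl2c5, a prolactin family hormone of giant cells (chr13:13182715-13191923, mm10), was listed at 0 in all 3 labelled knockout libraries and at 220, 203 and 248 TPM in the controls (limma, adjusted p = 1.2e-21). Prl5a1 stood at 4.92, 7.23 and 5.92 TPM against 112, 100.3 and 100.4 TPM, and Prl7a1 at 15.8, 0.902 and 119.5 TPM against 208, 197 and 222 TPM. The labelled knockout libraries spread widely for Prl7a1 while the controls did not, and with only these 2 groups in the fit it did not pass (adjusted p = 0.058). Rhox4g, Rhox4b and Rhox4e, near-identical homeobox copies on the X chromosome, changed by -4.53, -4.05 and -3.91 (log2). Inpp1, an inositol phosphatase, stood at 0, 0 and 0.539 TPM against 39.95 to 41.9 TPM in the controls, and Duoxa2, which matures a dual oxidase, at 4.90, 2.76 and 2.76 TPM against 110, 106 and 127 TPM. Pgam2, Ly6i, Fxyd2 and Snord12, a small nucleolar RNA inside the host gene Zfas1, were the others. Markers of other cells were low: the summed level of 13 blood markers was 1.59 to 19.5 TPM against 11.2 to 14.7 TPM, and that of 15 decidual and fibroblast markers 88.0 to 117 TPM against 99.4 to 116 TPM.

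A second comparison asked whether these levels also stood apart from 3 other knockouts of batch 1, without the controls. The 3 near-identical libraries labelled Aurkb knockout, also of batch 1, were left out of it. Their correlation with the controls (r = 0.91 to 0.913) was below that of the 3 compared knockouts (0.938 to 0.961). The 3 libraries labelled Nelfb knockout were set against the mean of 3 groups of 3 libraries labelled Snai1, Ss18 and Ssrp1 knockout, of the same stage, tissue label and batch; it shares the Nelfb libraries with the first comparison, so its values are given beside that one and not as separate support. Of those 3 targeted transcripts only that of Ss18 was lower in all libraries labelled for it (6.31, 19.9 and 19.7 TPM against 24.4 to 35.0 TPM in controls). Of 11814 genes tested, 2862 (24.2%) passed, 1467 (12.4%) higher and 1395 (11.8%) lower. Primitive endoderm markers were higher in 20 of 25 tested and lower in 3 (median 2.66). Sox17 was at 35.8, 71.0 and 21.1 TPM in the libraries labelled Nelfb knockout, and between 0 and 8.08 TPM in the other 9 (4.49 ± 0.39 SE, limma, adjusted p = 7.1e-18). Lama1 was between 0.255 and 8.84 TPM in those 9 and 71.0 to 103 TPM in the 3. S100g, a calcium-binding protein, was between 0 and 42.2 TPM in the 9 and at 231, 125 and 106 TPM in the 3.

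The histone and ribosomal genes also differed from the other knockouts, a comparison in which 12.4% of all genes were higher and 11.8% lower. Replication-dependent histones were higher in 26 of 59 tested and lower in 0 (median 0.72), at 3445 to 3725 TPM in sum against 1741 to 3012 TPM. Ribosomal protein genes were lower in 70 of 84 and higher in 2 (median -0.42), and their sums in the libraries labelled Ssrp1 knockout, 133520 to 146350 TPM, came closest to those of the libraries labelled Nelfb knockout. Autophagy and lysosome genes were higher in 11 of 25. Their sums with Ssrp1, 4512 to 4759 TPM, also lay above those of the controls, 2836 to 2966 TPM. Core pluripotency genes were higher in 3 of 13 and lower in 0, with a median of 0.16, against 0.49 in the comparison with the controls. Their sums with Snai1, 2025 to 2080 TPM, lay within those with Nelfb, 1787 to 2193 TPM. At the other end, Prl7a1 was between 314 and 729 TPM in the 9 other libraries and Sct, the hormone secretin, between 6.67 and 177 TPM, against 0, 0 and 1.57 TPM (-4.83 ± 0.34 SE, limma, adjusted p = 8.5e-24). Duoxa2, Arhgdib and Il24 were the remaining largest falls, and Aqp8 and Tex101 the remaining largest rises. With median scaling 28.8% of the calls were higher, against 51.3% as deposited.

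**Figure D5:**
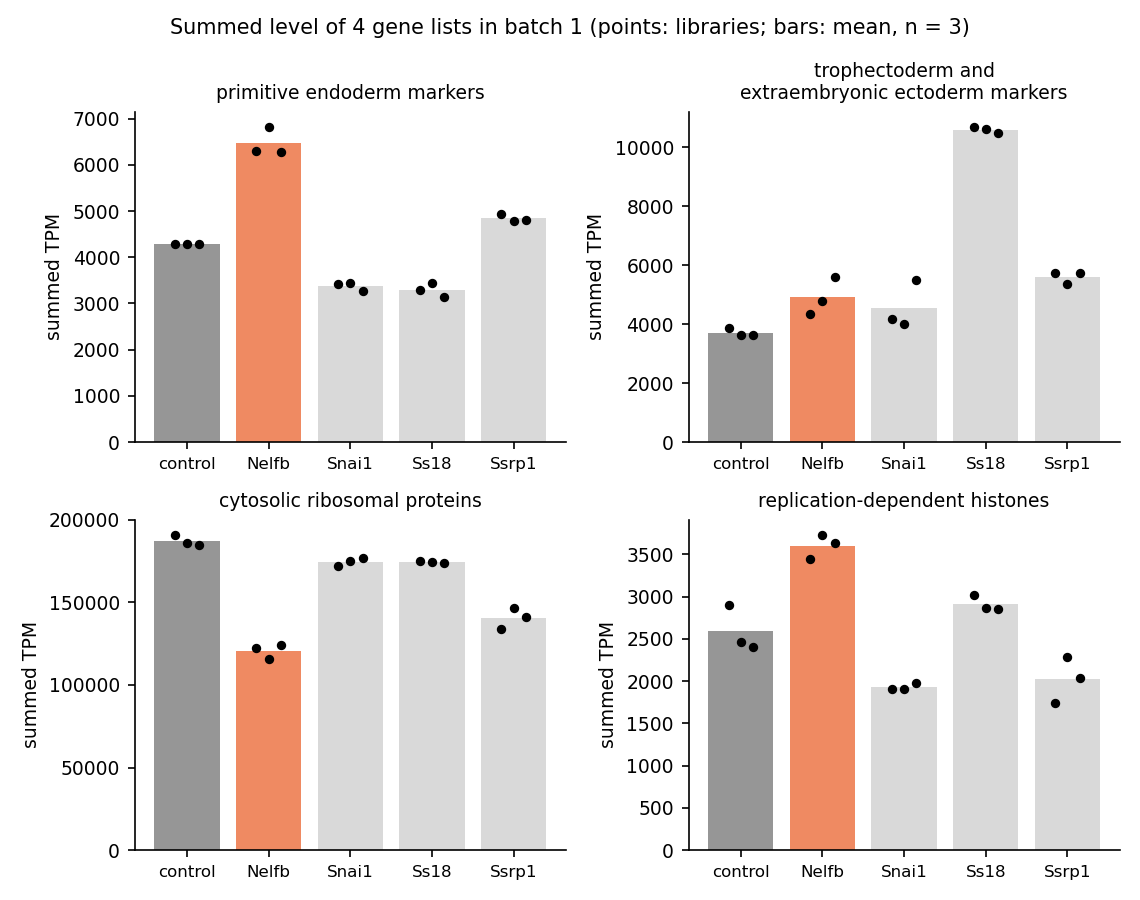
Bars give the mean and points the 3 libraries of the summed TPM of 4 gene lists (y axis, from 0) in the controls and in 4 groups of labelled knockouts of batch 1 (x axis). The libraries labelled Nelfb knockout have the highest primitive endoderm and histone sums and the lowest ribosomal protein sums of the 5 groups shown. The libraries labelled Aurkb knockout, also of batch 1, are not shown. Rhox5, which averaged 2980 TPM in the controls, is part of the primitive endoderm sums. Prl3d1, at 1374 TPM in labelled Nelfb knockout replicate 3, is part of the trophectoderm and extraembryonic ectoderm sums.

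A further comparison set the difference for Nelfb beside that for Gtf2b, the general factor TFIIB that places the polymerase at the start site. Gtf2b libraries and their own controls belong to batch 10, so no library is shared, and the test asks whether the 2 differences from the own controls are unequal. Gtf2b itself was at 10.1, 22.0 and 26.4 TPM in the libraries labelled for it and at 19.5, 34.7 and 27.4 TPM in their controls, ranges that overlap. Of 11978 genes tested, the differences were unequal for 1259 (10.5%), more positive for Nelfb in 476 (3.97%) and more negative in 783 (6.54%). The giant cell hormone Prl7a1 went in opposite directions, from 197 to 222 TPM down to 15.8, 0.902 and 119.5 TPM with Nelfb, and from 1.06 to 4.97 TPM up to 262, 271 and 240 TPM with Gtf2b (difference -9.91 ± 0.66 SE, limma, adjusted p = 1.6e-24). Sct did likewise: it fell to 0, 0 and 1.57 TPM with Nelfb and rose from 5.32 to 14.3 TPM to between 290 and 357 TPM with Gtf2b. Prnd, a relative of the prion protein, was high only in the Gtf2b libraries of these 4 groups, at 140, 121 and 162 TPM. Ube2dnl1 stood at 137, 103 and 118 TPM with Nelfb, against 6.58 to 9.43 TPM in its controls, and at 0, 0.332 and 2.57 TPM with Gtf2b, against 7.57 to 12.4 TPM in its own. Ribosomal protein sums and autophagy and lysosome sums differed in the same direction in both, whereas histone and complex I sums went opposite ways. Replication-dependent histones summed to 1787 to 2410 TPM with Gtf2b against 3279 to 3987 TPM in its controls. With Nelfb they summed to 3445 to 3725 TPM against 2401 to 2904 TPM. Complex I genes summed to 22957 to 24152 TPM with Gtf2b against 19326 to 22198 TPM. With Nelfb they summed to 13733 to 14534 TPM against 18056 to 18511 TPM. Ribosomal protein genes summed to 105080 to 112890 TPM with Gtf2b against 151010 to 156600 TPM in its controls, below them as with Nelfb. Autophagy and lysosome genes summed to 4795 to 5210 TPM with Gtf2b against 1858 to 2081 TPM, and to 5358 to 5651 TPM with Nelfb against 2836 to 2966 TPM. Primitive endoderm markers summed to 3083 to 3140 TPM with Gtf2b, below the 3928 to 4037 TPM of its controls. Rhox5, a member of that list, alone averaged 3020 TPM in those controls. This sum therefore does not show the level of the other members. These sums were not tested. The factor and the batch cannot be told apart in this comparison.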

How the data were processed

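Smart-seq2 type libraries of 3 samples labelled Nelfb knockout and 3 controls of batch 1 were used. The authors deposited TPM values per gene, per the file headers. The build was mm10, and HISAT2 2.2.1, StringTie 2.2.1 and Cufflinks are listed without their roles, per the submitters' processing notes. Read counts and depth are unknown, so no counting interval is given, and adjusted p-values measure the spread between libraries only.

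Where a symbol occurred more than once, its TPM were added up. A gene entered the test if 3 or more of the compared libraries had 1 TPM or above. The test was made on log2(TPM + 1), which understates changes of low genes, with limma 3.58.1 in R 4.3.3. The model had 1 mean per group over all libraries of the screen table, with 3 near-identical Aurkb knockout libraries (r = 0.998) averaged to 1, eBayes with trend, and Benjamini-Hochberg adjustment over all tested genes at 0.05, two-sided. Checks ran on simulated data. The members and the 40 gene lists were chosen with earlier results of these data known. Histone, Ccn1, Ccn2 and H2ax symbols were updated to those of the table after it was seen.

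Named genes were the NELF subunits, the 12 largest rises and falls whose groups did not overlap and whose larger group mean reached 5 TPM (no clones or pseudogenes), up to 4 called members per list, or the 2 with the smallest p where none was called, and 5 rises and 5 falls in each other comparison. Alternatives were another pseudocount (0.1), other filters (none, or 5 TPM), quantile and median scaling, library weights, a replicate block, fewer groups in the fit, a 2-fold minimum and leaving out each library. Promoters came from RefSeq (GRCm38.p6; 8306 of 10370 tested genes matched), transcripts and most positions from GENCODE M21. Figures were drawn with matplotlib 3.10.9 in Python 3.11.15. 1 gene is not reported here.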

Additional observations from a re-analysis of the deposited data

Results flagged for a closer look

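The differences from the own controls were unequal between the libraries labelled Nelfb knockout (batch 1) and those labelled Gtf2b knockout (batch 10) for 1259 genes by the test of that difference (limma, adjusted p under 0.05), and the 10 with the largest values were looked at again. More positive with Nelfb, on the log2(TPM + 1) scale, were Ube2dnl1 (6.46), Platr5 (5.63), Saa3 (5.19), Catip (4.62) and P3h4 (4.44). More negative with Nelfb were Prl2c5 (-13.06), Prl7a1 (-9.91), Sct (-7.80), Prnd (-6.51) and Il24 (-6.33). All 10 kept their call and direction under the other settings run for them.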

How the results depend on the processing

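The count of genes that differed from the controls was 2218 and lay between 1717 and 2140 when 1 library was left out (higher 903 to 1139, lower 767 to 1001). Against the Snai1, Ss18 and Ssrp1 groups of batch 1 it was 2862, with 2233 to 2818 (higher 1183 to 1440, lower 1050 to 1385). For the difference from Gtf2b it was 1259, with 1028 to 1295 (higher 358 to 498, lower 647 to 797). A 2-fold minimum left 1374 in the first (536 lower) and 1605 in the second (903 higher, 702 lower). Median scaling gave 596 higher and 2039 lower in the first and 924 and 2285 in the second. With only the compared groups in the fit there were fewer libraries for the spread, and it came from those groups alone. In the first 1554 then passed (910 higher, 644 lower) and in the second 1759 (909 higher, 850 lower). Of the 177 named genes that passed against the controls, 36 lost their call, the most of any setting. The main fit shared the spread over all groups, and the libraries labelled Nelfb knockout were less alike (r = 0.889 to 0.899) than the controls (0.973 to 0.975). The main p-values therefore do not measure the spread of the Nelfb libraries by itself. Library weights left 1558 in the first (839 higher, 719 lower) and 1080 in the second (517 higher, 563 lower). The cause of the last was not tested. No named gene that passed changed direction in the settings run, although Ftl1 and Dppa5a gave 0 with quantile normalization, which sets equal ranks equal. Among genes that did not pass, differences near 0 changed sign: Nelfe (0.17) was at -0.10 with quantile normalization, -0.19 with median scaling and between -0.030 and 0.43 with 1 library left out. Sox2 (0.15) gave -0.030, -0.21 and left-out values from -0.13 to 0.61, and Cdk9 (0.13) gave -0.24, -0.23 and -0.21 to 0.31. With median scaling Eef1a1 was at -0.15 and Eef2 at -0.32 (left-out range of Eef2 -0.10 to 0.14). Left-out values ran from -0.87 to 0.32 for Otx2, -0.21 to 0.19 for Tfap2c and -0.15 to 0.22 for Fos. Of 177 genes named against the controls that passed, 117 kept call and direction under every setting that could test them. Same-numbered libraries did not deviate together (r = -0.0209, -0.00842 and -0.0117 for numbers 1 to 3), and all 9 pairs lay between -0.0209 and 0.0128. With 3 libraries a group this cannot exclude a pairing. The replicate block gave 2554, 3226 and 1537 genes in the 3 comparisons, against 2218, 2862 and 1259 without it.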

Other observations

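Gene groups picked after the values were seen are described here without a test of the group. Over all tested genes 11.7% were higher and 9.71% lower. Host genes of small nucleolar RNAs, noncoding RNAs whose introns hold the guides for modifying ribosomal RNA and which share the pyrimidine start of ribosomal protein messages, were lower in 11 of 19 tested and higher in 0 (median -1.15). Snhg6 stood at 110, 99.7 and 109 TPM in the libraries labelled Nelfb knockout against 531, 563 and 586 TPM (-2.38 ± 0.19 SE, limma, adjusted p = 2.8e-20). Gas5 stood at 297, 239 and 284 TPM against 765, 816 and 796 TPM, and Zfas1, the host of Snord12, at 45.4, 34.7 and 29.8 TPM against 188, 166 and 202 TPM. Of 15 translation factors whose messages start in the same way, 10 fell and 0 rose (median -0.46). Pabpc1, the poly(A)-binding protein, changed most, at 105, 133 and 107 TPM against 307, 289 and 319 TPM, while Eef1a1 (0.21) and Eef2 (0.04) did not pass. Eef1a1 was higher with quantile normalization (0.35, adjusted p = 0.013) and with only the compared groups in the fit (adjusted p = 0.013).

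Chaperones of the endoplasmic reticulum were higher in 13 of 17 and lower in 0 (median 0.74). Hspa5, the chaperone BiP, stood at 985, 1124 and 1049 TPM against 317, 278 and 284 TPM (1.84 ± 0.15 SE, limma, adjusted p = 3.4e-19), and P4hb, which works in collagen folding, at 590, 631 and 536 TPM against 169, 168 and 168 TPM. Of 8 histone genes outside the cell cycle clusters, whose messages are mostly polyadenylated, 5 rose and 0 fell; H3f3b stood at 9484, 9611 and 9404 TPM against 3390, 3388 and 3402 TPM and H1f0 at 209, 271 and 248 TPM against 30.0, 30.2 and 33.7 TPM. Of 13 tested Rhox genes 9 fell and 1 rose, and of 7 tested prolactin family genes 3 fell and 0 rose. Apart from Rhox5 and Rhox9, the Rhox genes that fell were all Rhox4 copies, between which reads cannot be assigned with certainty. The 1 that rose, Rhox10, stood at 0, 17.7 and 3.6 TPM in the libraries labelled knockout, and its groups overlapped. Beside Ftl1, the ferritin heavy chain Fth1 was lower, at 4584, 4052 and 4396 TPM against 5657, 5724 and 5714 TPM (-0.39 ± 0.06 SE).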
